A study of Bos taurus with 6 samples.

Results

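The unfolded protein response and the protein-folding genes of the endoplasmic reticulum (ER) were examined in cumulus cells of cattle, the somatic layers around the oocyte. The list holds 39 genes, taken by gene symbol from the platform annotation, and 33 of them were measured by 46 probe sets, of 9155 named genes and 24016 probe sets in all. XBP1, ERN1, ATF6, ASNS, PDIA6 and EDEM1 are not analysed here, since no probe set carries their symbol alone in the annotation used. The large_follicle group holds 3 arrays of cumulus cells from complexes of follicles of 8 mm or more, named competent by the submitters, and the small_follicle group holds 3 arrays from follicles of 1 to 3 mm, named incompetent. Competence is a property that the study attaches to follicle size and was not measured on these cells. Both groups came from cows that were crosses of Bos indicus with Bos taurus, whose ovaries were collected at slaughter, and from complexes chosen for compact cumulus layers and an even cytoplasm. The cells were stripped off by pipetting and pooled, and RNA of each pool was read on 1 Affymetrix bovine array. The arrays of a group are titled biological replicates, but no label gives the number of cows or complexes in a pool, and p-values therefore cover only how far these pools differ from each other.

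The ER folds secreted and membrane proteins with chaperones such as BiP (HSPA5) and with disulfide isomerases, and passes misfolded ones to degradation in the cytosol. When unfolded proteins build up, the sensors PERK (EIF2AK3), IRE1 (ERN1) and ATF6 respond. PERK phosphorylates the translation factor eIF2alpha (EIF2S1), which lowers general protein synthesis but favours translation of the transcription factor ATF4. ATF4 in turn induces CHOP (DDIT3), the phosphatase subunit GADD34 (PPP1R15A) and genes of amino acid supply, while ATF6 and the spliced form of XBP1 induce chaperones and degradation factors. Granulosa and cumulus cells secrete inhibin, matrix and other proteins through this route. Transcript levels do not show whether a sensor is active, since PERK, IRE1 and ATF6 are switched on through the protein itself.

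All values are log2 signals, and differences are large-follicle minus small-follicle arrays ± SE, from limma with Benjamini-Hochberg adjustment over 24016 probe sets. The 3' signal minus the 5' signal over 6 control transcripts, a sign of RNA quality called the end index here, was 2.15, 1.77 and 2.01 in large-follicle arrays, against 2.68, 2.53 and 2.16 in small-follicle arrays (exact permutation test, 2-sided, p = 0.1, the smallest possible). The groups do not overlap in this index, so it cannot be told apart from follicle size. A call lost with the index as a covariate therefore does not show which of them the difference goes with. Of 13 granulosa and cumulus markers 12 were measured, with a mean signal of 10.87 to 11.00 in large-follicle and 10.29 to 10.44 in small-follicle arrays, 7 called higher and 1 lower. This is 66.7% called, against 15.4% of all genes. The largest rises were those of CYP19A1 (2.14), CYP11A1 (1.72) and INHBA (1.14). FST, INHA and INHBA read between 12.83 and 14.11 on every array, while the granulosa transcription factor FOXL2 read 4.36 to 5.06, below the median probe set mean of 5.67. GATM was the marker called lower (-1.20). The 7 measured oocyte markers averaged 4.32 to 4.36 in large-follicle and 4.18 to 4.36 in small-follicle arrays. The 15 measured leukocyte markers averaged 5.41, 4.61 and 4.43 in large-follicle arrays, against 4.21, 4.13 and 4.73 in small-follicle arrays, and 2 of them (CORO1A and LCP1) were called higher and 0 lower. The 6 measured stroma markers averaged 6.39, 5.89 and 5.73 in large-follicle arrays, against 5.90, 6.15 and 6.90 in small-follicle arrays, with 0 called in limma. COL1A2 (-1.08, limma adjusted p = 0.0539) did not overlap between groups, and COL3A1 differed by -1.04. ACTA2 went the other way (0.75, limma adjusted p = 0.0797), while COL1A1, DCN and LUM differed by -0.23, -0.21 and -0.08. LUM read 7.53 to 9.07. The 4 theca markers averaged 5.75 to 6.38 in large-follicle and 5.46 to 5.78 in small-follicle arrays, with 0 called and INSL3 at 8.60 to 9.78. The 5 endothelial markers had a median signal of 4.05, and 1 (TEK, -0.57) was called lower. PECAM1, VWF, CDH5 and KDR differed the other way, by 0.19, 0.46, 0.16 and 0.04. They did not pass, although the groups of PECAM1 and VWF do not overlap. The part of these cell types in the results was not tested, except by a covariate for leukocyte markers.

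Few of the genes passed the adjusted threshold. DDIT3, which encodes the stress transcription factor CHOP, and DERL1, a channel component of ER-associated degradation, rose in cumulus cells of large follicles, and PDIA4, a disulfide isomerase, and NUCB2, a calcium-binding protein of the secretory pathway, fell. These were 2 higher and 2 lower of 33 genes, 12.1%, where 15.4% of all genes were called (7.08% higher and 8.30% lower), so calls were about as frequent as among genes at large. The groups did not overlap in 11 of the 33 genes, against 36.5% of all genes. The median difference over the 33 genes was 0.04, against 0.01 over all genes, and the median size was 0.19, against 0.18. With the end index as a covariate 0 of the 33 passed in limma, 5 had an unadjusted p under 0.05, and 0.895% of all probe sets were called. In these bulk pools, a change in the cells' make-up and a change in RNA per cell cannot be told apart.

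**Figure D1:**
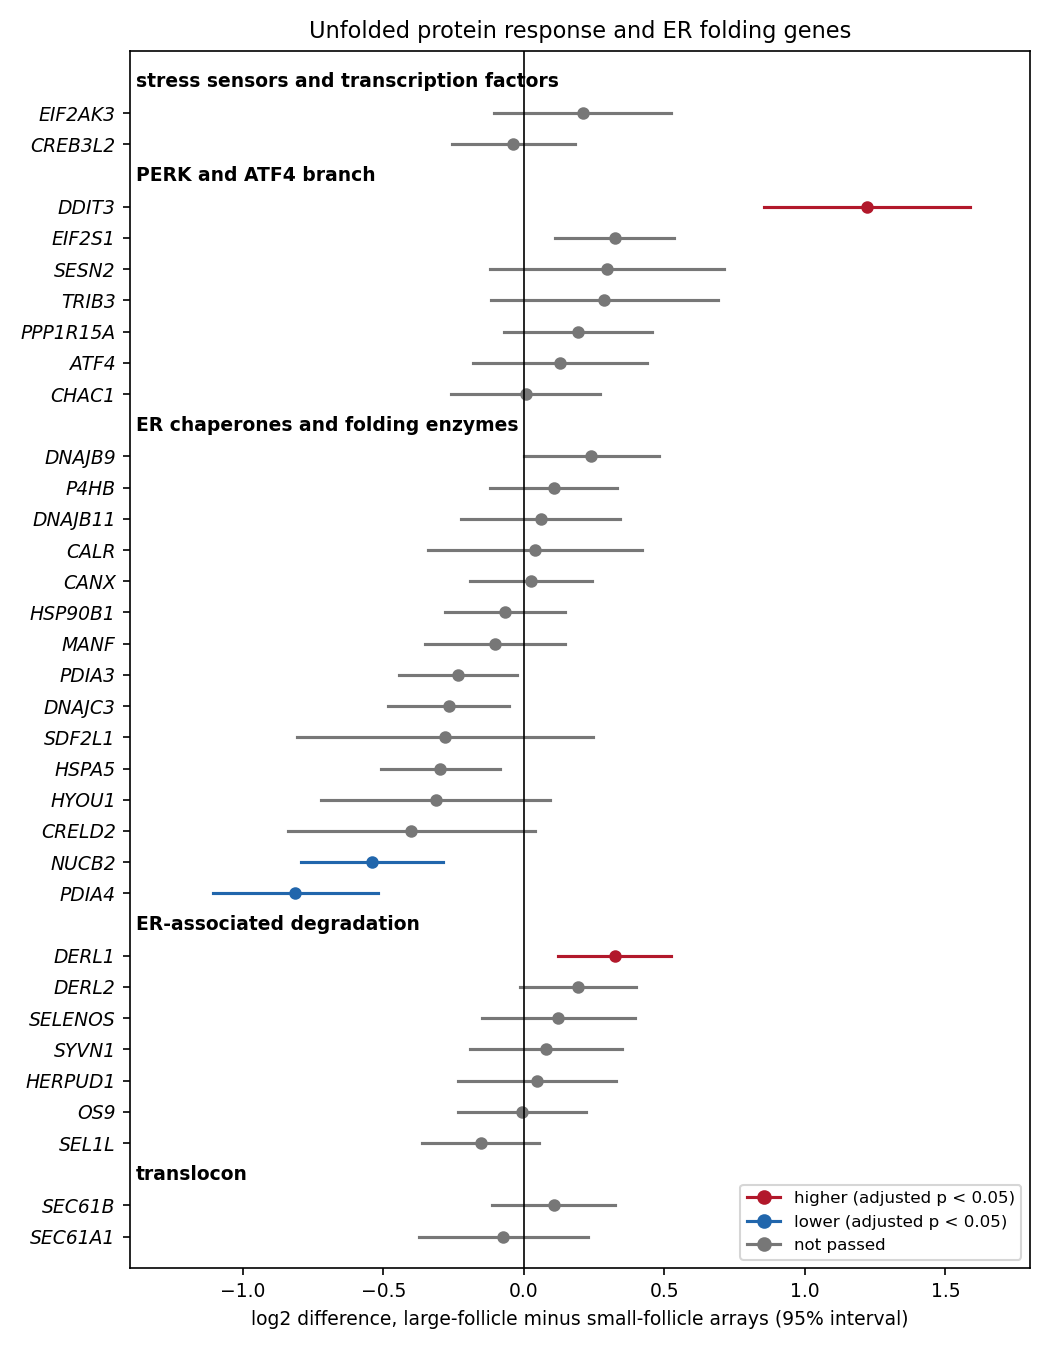
Log2 difference (large-follicle minus small-follicle arrays, horizontal axis) of the 33 measured genes by role, with 95% intervals from limma. Red and blue points passed the adjusted threshold. DDIT3 at 1.22 lies apart from the rest of its group. PDIA4 at -0.81 and the calcium binder NUCB2 at -0.54 are at the lower end of the group of chaperones and folding enzymes.

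Of the stress sensors and membrane-bound transcription factors only EIF2AK3 and CREB3L2 could be read. EIF2AK3, the kinase PERK, had signals of 5.81, 6.09 and 5.78 in large-follicle arrays, against 5.45, 5.85 and 5.75 in small-follicle arrays. The groups overlap, and the difference of 0.21 ± 0.14 did not pass (adjusted p = 0.388). CREB3L2, a relative of ATF6 that is released from the ER membrane by proteolysis, differed by -0.04 ± 0.10. In limma 0 of these 2 genes passed, and 0 had an unadjusted p under 0.05.

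In the PERK and ATF4 branch, 1 of 7 measured genes rose, 0 fell and 6 did not pass (14.3% called, against 15.4% of all genes). DDIT3 had signals of 8.21, 8.16 and 8.63 in large-follicle arrays, against 6.95, 7.03 and 7.36 in small-follicle arrays. Every large-follicle array lay above every small-follicle array. The mean was 8.33 ± 0.26 in large-follicle and 7.11 ± 0.22 in small-follicle arrays (SD, n = 3 each), a difference of 1.22 ± 0.16 or 2.33-fold (limma adjusted p = 0.0032). Leaving out any array gave 1.07 to 1.34, and with the leukocyte marker mean as a covariate the difference was 1.23 (adjusted p = 0.0179). With the end index as a covariate it was 1.02 and did not pass (adjusted p = 0.101).

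The other genes of this branch differed less. ATF4 itself, which acts upstream of DDIT3, had signals of 11.13, 11.48 and 11.63 in large-follicle arrays, against 11.25, 11.26 and 11.34 in small-follicle arrays. The lowest of the 6 values belonged to a large-follicle array, and the difference of 0.13 ± 0.14 did not pass (adjusted p = 0.613, 95% interval -0.18 to 0.44). EIF2S1, the alpha subunit of eIF2 that PERK phosphorylates, had 10.90, 11.05 and 10.93 in large-follicle arrays, against 10.64, 10.68 and 10.59 in small-follicle arrays. These groups do not overlap, but the difference of 0.32 ± 0.09 missed the threshold (adjusted p = 0.0563). PPP1R15A, which directs the dephosphorylation of eIF2alpha, differed by 0.19 ± 0.12. SESN2, a stress-induced inhibitor of growth signalling, differed by 0.30 ± 0.18, and its other probe sets by 0.25 and 0.19. TRIB3, a pseudokinase induced by ATF4 and CHOP, differed by 0.29 ± 0.18 and was called higher in a fit without large-follicle replicate 2 (0.50, adjusted p = 0.0369). CHAC1, a glutathione-degrading enzyme and ATF4 target, differed by 0.01 ± 0.12 in its brighter probe set, which can bind several transcripts. Its other probe set gave 0.25 ± 0.11, with groups not overlapping (limma adjusted p = 0.166).

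The 7 differences were above 0, CHAC1 by less than its error in the brighter probe set used here. The sign of CHAC1 turned under quantile scaling and median centring and without large-follicle replicate 1 or 3 or small-follicle replicate 3, and those of ATF4 (-0.053) and SESN2 (-0.23) turned with the end index as a covariate. Their median was 0.29, and without large-follicle replicate 3 it was 0.18. The mean of the branch, centred on each gene's mean over the 6 arrays, was 0.14, 0.10 and 0.29 in large-follicle arrays, against -0.21, -0.20 and -0.12 in small-follicle arrays. DDIT3 carries much of this distance. Without it the means were 0.08, 0.04 and 0.19 in large-follicle arrays, against -0.11, -0.12 and -0.08 in small-follicle arrays.

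**Figure D2:**
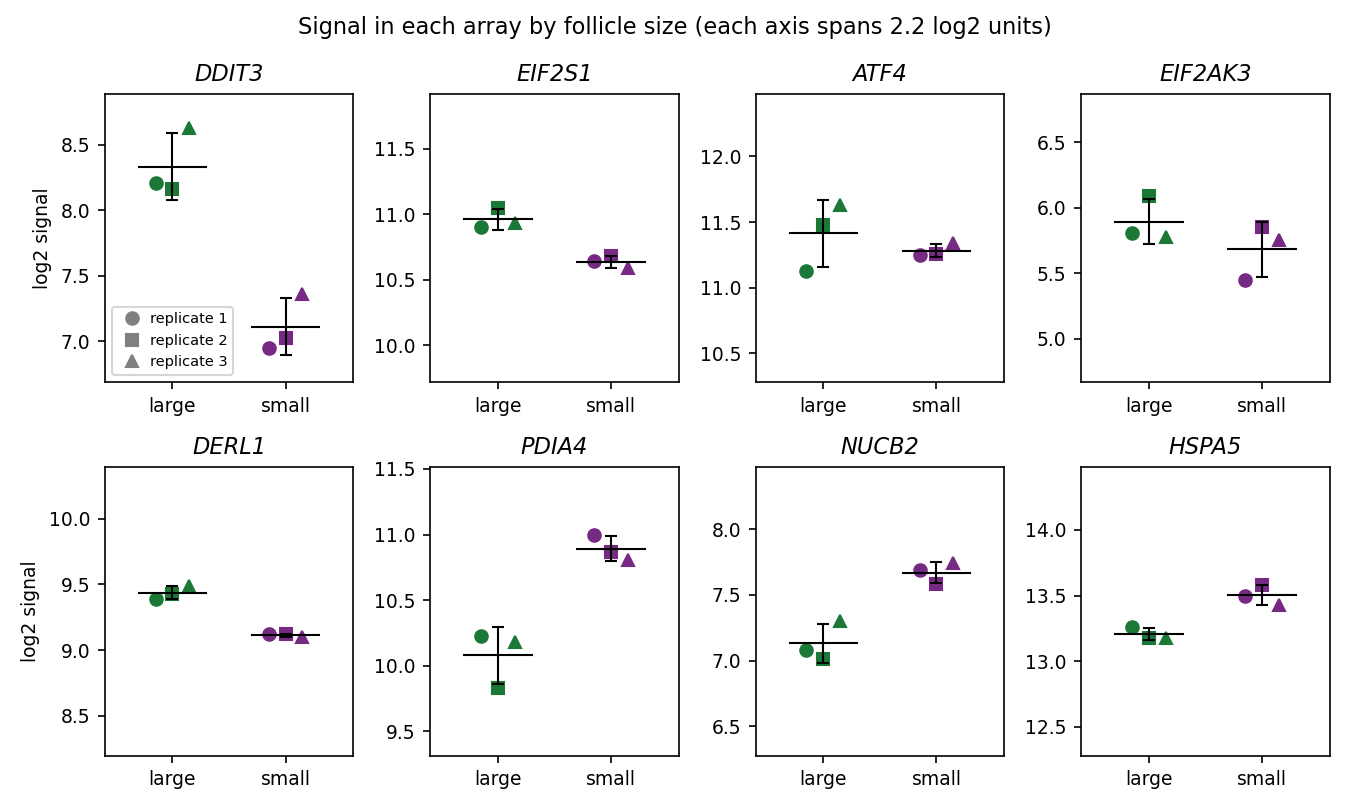
Log2 signal (vertical axis) of 8 genes in each array, large-follicle arrays left and small-follicle arrays right, with marker shape for the replicate number and black lines for the mean and SD (n = 3). The groups are separate for DDIT3, EIF2S1, DERL1, PDIA4, NUCB2 and HSPA5, and overlap for ATF4 and EIF2AK3.

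Among ER chaperones and folding enzymes, 2 of 15 measured genes fell, 0 rose and 13 did not pass. This is 13.3% called, close to 15.4% of all genes. The calcium binder NUCB2 is counted in this group, although it is not a folding enzyme. PDIA4, a disulfide isomerase with several thioredoxin-like domains, had signals of 10.23, 9.83 and 10.18 in large-follicle arrays, against 11.00, 10.87 and 10.81 in small-follicle arrays. All large-follicle values lay below all small-follicle values. The mean was 10.08 ± 0.22 in large-follicle and 10.89 ± 0.10 in small-follicle arrays (SD, n = 3 each), a difference of -0.81 ± 0.13 (limma adjusted p = 0.00625), 1.76-fold lower. Its other probe sets gave -0.25 ± 0.12 and -0.25 ± 0.11 and did not pass. Leaving out any array gave -0.89 to -0.69, with the call kept, and the end index as a covariate gave -0.53 without a call (adjusted p = 0.151).

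NUCB2, the precursor of the peptide nesfatin as well as a calcium binder, had 7.08, 7.01 and 7.30 in large-follicle arrays, against 7.69, 7.58 and 7.74 in small-follicle arrays. The groups do not overlap, and the difference was -0.54 ± 0.11 (limma adjusted p = 0.0162). Without large-follicle replicate 1 (-0.52), large-follicle replicate 2 (-0.48) or small-follicle replicate 1 (-0.53) it did not pass, nor with the end index (-0.54) or the leukocyte marker mean (-0.52) as a covariate.

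HSPA5, the main ER chaperone and the partner that holds the sensors inactive, had 13.26, 13.18 and 13.18 in large-follicle arrays, against 13.50, 13.58 and 13.43 in small-follicle arrays. Its groups do not overlap, but the difference of -0.30 ± 0.09 did not pass (limma adjusted p = 0.0734), and its other probe sets gave -0.12 and -0.10. The remaining soluble chaperones of its machinery went both ways. DNAJC3, a co-chaperone of BiP, differed by -0.27 ± 0.09 and the nucleotide exchange factor HYOU1 by -0.31 ± 0.18. The other probe sets of HYOU1, with mean signals of 3.97 to 4.61, gave -0.11 to 0.12. DNAJB9 differed by 0.24 ± 0.10 and DNAJB11 by 0.06 ± 0.12, and both are J-domain partners of BiP. HSP90B1, the HSP90 of the ER, differed by -0.07 ± 0.09. MANF, CRELD2 and SDF2L1, which are induced by ER stress, differed by -0.10 ± 0.11, -0.40 ± 0.19 and -0.28 ± 0.23. With the end index as a covariate HYOU1 (0.022), MANF (0.025), CRELD2 (0.044) and SDF2L1 (0.31) changed sign. Without large-follicle replicate 2, HYOU1 differed by -0.13, CRELD2 by -0.24 and SDF2L1 by -0.035. None of these genes passed, and the groups of HSPA5, DNAJC3 and DNAJB9 among them do not overlap. Over all 15 measured chaperones and folding enzymes the share without overlap was 40.0%, close to 36.5% of all genes.

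The lectin chaperones CALR and CANX, which bind newly made glycoproteins, differed by 0.04 ± 0.17 and 0.03 ± 0.09. PDIA3, the isomerase that works with them, differed by -0.23 ± 0.09 (adjusted p = 0.144, groups not overlapping). P4HB, the classical disulfide isomerase and a subunit of prolyl hydroxylase, differed by 0.11 ± 0.10. PDIA4 was thus the only measured disulfide isomerase of the list that passed, and whether its difference departs from that of PDIA3 or P4HB was not tested.

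Over the 15 chaperones and folding enzymes, 10 differences were below 0 and 5 above, with a median of -0.23. The median was -0.07 without large-follicle replicate 2, -0.13 without small-follicle replicate 1, -0.10 with the mean of all probe sets per gene and -0.01 with the end index as a covariate. With PDIA4 and NUCB2 left out it was -0.10 in the main fit. The centred mean of the group was -0.08, -0.24 and 0.04 in large-follicle arrays, against 0.13, 0.11 and 0.04 in small-follicle arrays. The third large-follicle array and the third small-follicle array were level. Large-follicle replicate 2 was the lowest array of its group in 11 of the 15 genes, against 37.9% of all genes, and large-follicle replicate 3 the highest in 10, against 41.8%. HYOU1 shows the spread, with 9.06, 8.69 and 9.42 in large-follicle arrays, against 9.52, 9.33 and 9.26 in small-follicle arrays. CRELD2 read 9.22, 8.92 and 9.56 in large-follicle arrays, against 9.70, 9.88 and 9.32 in small-follicle arrays. Large-follicle replicate 2 also had the lowest end index of the 6 arrays (1.77) and small-follicle replicate 1 the highest (2.68). The part of this index in the chaperone values was not tested beyond the covariate fit.

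**Figure D3:**
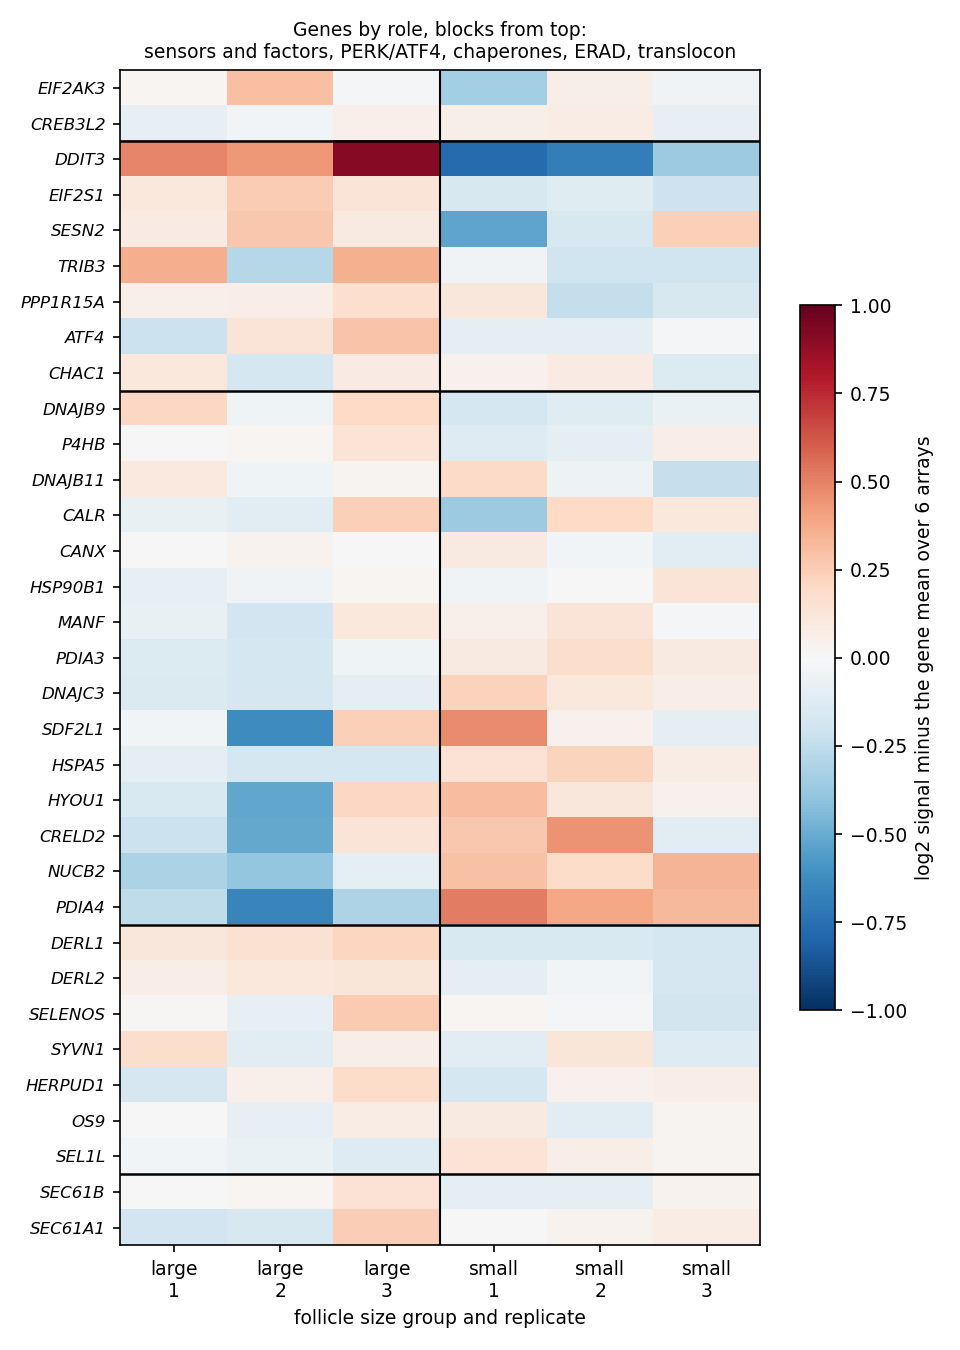
Log2 signal of each gene minus its mean over the 6 arrays (colour), with genes in rows by role and arrays in columns, large-follicle arrays left. The DDIT3 row has the strongest contrast, and SDF2L1, HYOU1, CRELD2 and PDIA4 are lowest in large-follicle replicate 2.

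In ER-associated degradation, which pulls misfolded proteins back to the cytosol, 1 of 7 measured genes rose, 0 fell and 6 did not pass. The share called was 14.3%, close to 15.4% of all genes. DERL1 had signals of 9.39, 9.43 and 9.49 in large-follicle arrays, against 9.12, 9.12 and 9.10 in small-follicle arrays. The replicates lay close together and the groups do not overlap, at a difference of 0.32 ± 0.09 (limma adjusted p = 0.0463), 1.25-fold. This call was lost on leaving out any of the 6 arrays (0.30 to 0.35, adjusted p 0.101 to 0.13), with median centring (0.31, adjusted p = 0.055) and with the end index (0.33) or the leukocyte marker mean (0.36) as a covariate. Its paralogue DERL2 differed by 0.19 ± 0.09 with no overlap, and SELENOS, which recruits the extraction machinery to derlins, by 0.12 ± 0.12. The ubiquitin ligase SYVN1 differed by 0.08 ± 0.12 and its partner SEL1L, whose groups do not overlap, by -0.15 ± 0.09. HERPUD1, a stress-induced scaffold of the complex, differed by 0.05 ± 0.12 and the lectin OS9 by -0.01 ± 0.10.

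The translocon genes SEC61A1 and SEC61B, which form the channel for new proteins into the ER, differed by -0.07 ± 0.13 and 0.11 ± 0.10. In limma 0 of the 2 passed, and 0 had an unadjusted p under 0.05.

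Further genes of the same pathways were read from 6 lists with 157 genes, of which 123 were measured. Of these 9 rose and 9 fell, 14.6%, again close to 15.4% of all genes. The share differed between the lists, from 3.70% in the translocon list to 33.3% in the list of ATF4 and CHOP targets. These lists were chosen with earlier results of these data known, so their shares support nothing by themselves. With the end index as a covariate 1 rose (EIF4EBP1) and 0 fell, at 0.895% of all probe sets called. The calls given here for the other 17 do not hold in that fit, where the index and follicle size cannot be told apart. The count of falls was 4 without small-follicle replicate 2 and 5 without large-follicle replicate 1 or small-follicle replicate 1.

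Other known targets of ATF4 and CHOP moved in both directions, with 5 of 30 measured genes higher, 5 lower and 20 not past the threshold (median -0.07). This is 33.3% called, against 15.4% of all genes. The groups did not overlap in 56.7% of the list, against 36.5% of all genes. The list was chosen with earlier results of these data known, so neither share supports anything by itself. EIF4EBP1, which encodes a repressor of cap-dependent translation, had 9.47, 9.47 and 9.79 in large-follicle arrays, against 7.79, 8.09 and 8.20 in small-follicle arrays. The groups are more than 1 log2 unit apart, and the difference of 1.55 ± 0.14 passed (limma adjusted p = 0.00107), also in all 19 alternatives. ERO1A, the oxidase that recharges disulfide isomerases, had 8.16, 8.68 and 7.82 in large-follicle arrays, against 6.36, 6.56 and 7.11 in small-follicle arrays, a difference of 1.54 ± 0.25, and its other probe set, with a mean signal of 2.80 near the low end of the arrays, 0.41 ± 0.11, both called. DDIT4, an inhibitor of mTORC1, rose by 0.74 ± 0.11, and VLDLR, a lipoprotein receptor, by 0.81 ± 0.09 in the brightest of its 4 probe sets, while the others, with mean signals of 2.16 to 3.48, gave -0.10 to 0.02. ERO1A, DDIT4 and VLDLR are also known as genes induced by low oxygen. CEBPB, a transcription factor that pairs with CHOP, rose by 0.93 ± 0.22 (1.56 ± 0.25 in its other probe set). The CEBPB call was kept without large-follicle replicate 3 and lost without any other array.

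The 5 genes that fell were PHGDH, PSAT1, CBS, MTHFD2 and SLC38A2. A division by function was made after the values were seen and supports nothing by itself. In it 4 of 6 measured enzymes of serine, one-carbon and transsulfuration metabolism were lower, where 8.30% of all genes were. Of amino acid transporters 1 of 4 and of aminoacyl-tRNA synthetases 0 of 11 were lower. The 9 measured transcription factors, stress regulators and others had 5 higher and 0 lower, where 7.08% of all genes were higher. PHGDH, the entry enzyme of serine synthesis, had 8.55, 8.34 and 9.04 in large-follicle arrays, against 9.82, 9.94 and 9.50 in small-follicle arrays. The groups do not overlap, and the difference was -1.11 ± 0.19 (limma adjusted p = 0.00869). PSAT1, the next enzyme of that route, had 6.68, 6.26 and 7.26 in large-follicle arrays, against 8.16, 7.90 and 7.38 in small-follicle arrays, a difference of -1.08 ± 0.27 that was not called without large-follicle replicate 1 or 2 or small-follicle replicate 1 or 2. Its other probe sets gave -0.13 and -0.01. CBS, which starts transsulfuration, fell by 0.71 at a mean signal of 4.37, below the median probe set mean of 5.67. SLC38A2, an amino acid transporter, fell by 0.57. MTHFD2, a mitochondrial folate enzyme named outside the rule, fell by 0.51 in the brightest of 4 probe sets, and the others gave -0.17 to 0.10. The call of MTHFD2 was lost without small-follicle replicate 2. The transcription factor CEBPG at -0.53 ± 0.15 and the transporter SLC7A1 at -0.44 ± 0.15 did not pass. The 11 aminoacyl-tRNA synthetases lay between -0.29 and 0.23, with 0 called in limma and 5 at an unadjusted p under 0.05. ATF3 at 0.21 ± 0.13, ATF5 at -0.14 ± 0.13 and NUPR1 at 0.29 ± 0.14, all stress transcription regulators, did not pass.

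**Figure D4:**
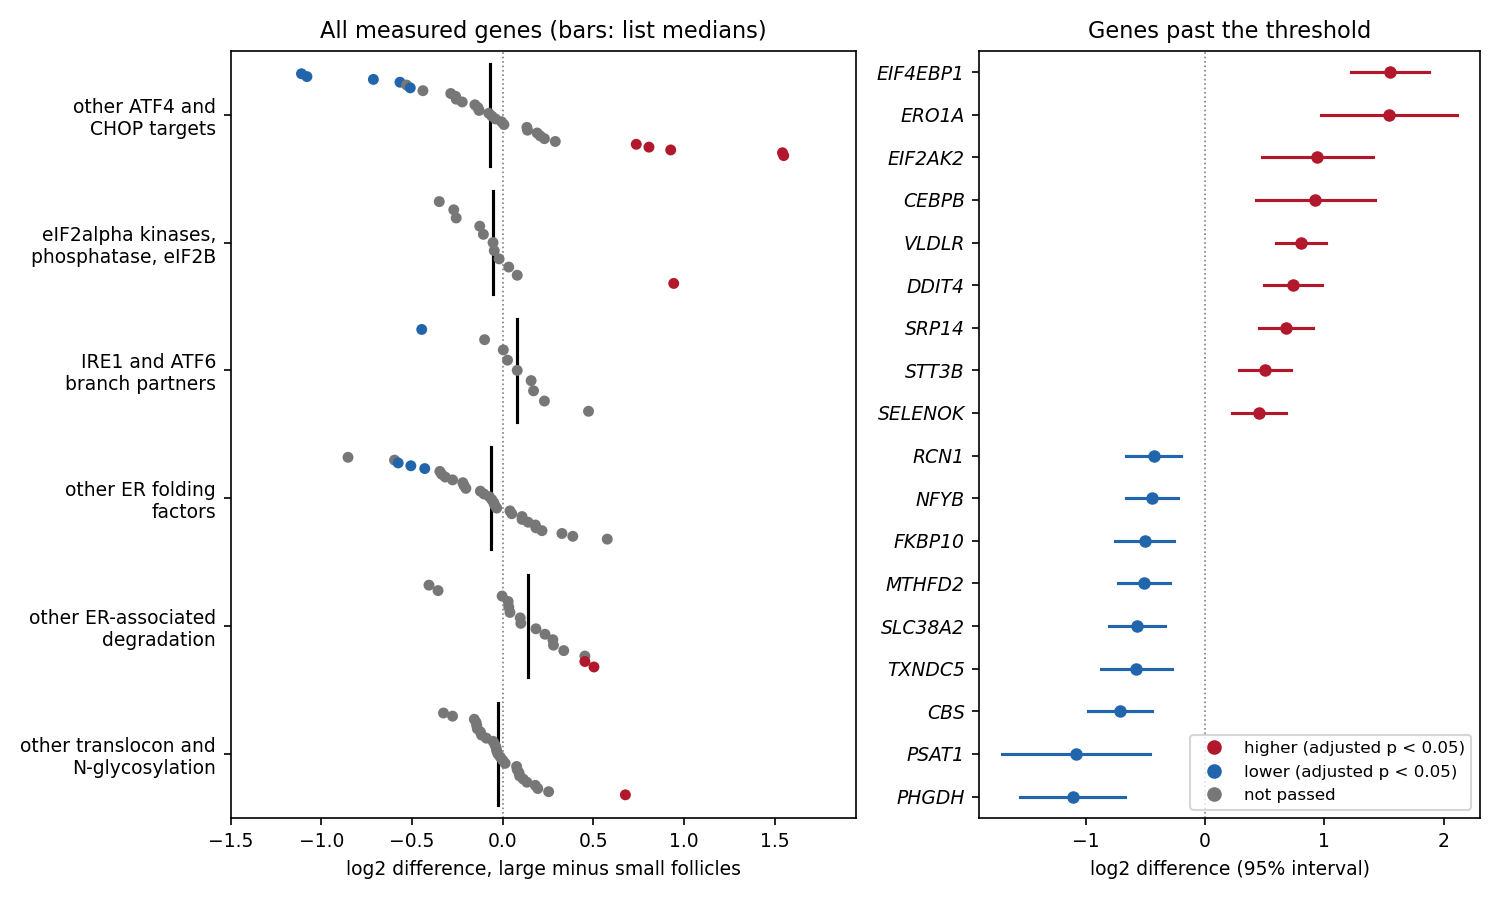
Left, log2 differences (large-follicle minus small-follicle arrays) of 123 further pathway genes by list, with black bars at the list medians. Right, the 18 that passed, with 95% intervals from limma. EIF4EBP1 and ERO1A are the highest and PHGDH and PSAT1 the lowest.

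Of the kinases, phosphatase and exchange factors that act on eIF2, 1 of 11 measured genes rose and 0 fell (9.09% called, against 15.4% of all genes). It was EIF2AK2, the double-stranded RNA kinase PKR, which is also induced by interferon, at 0.94 ± 0.20. The other probe set of EIF2AK2 gave -0.33 ± 0.20, and the call was lost without large-follicle replicate 1 or 3 and with the leukocyte marker mean (0.80) as a covariate. Among partners of IRE1 and ATF6, 1 of 9 fell and 0 rose (11.1% called, against 15.4% of all genes). It was NFYB at -0.45 ± 0.09, a subunit of the NF-Y factor that binds ER stress elements together with ATF6. Among other folding factors, 3 of 30 fell and 0 rose, with a median of -0.07. They were TXNDC5, a relative of the disulfide isomerases, at -0.58 ± 0.13, the prolyl isomerase FKBP10 at -0.51 ± 0.11 and the calcium binder RCN1 at -0.43 ± 0.10. A second probe set of TXNDC5 gave -0.13 ± 0.10, and its call was lost without any small-follicle array.

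Other factors of ER-associated degradation had 2 of 16 higher and 0 lower (12.5% called, against 15.4% of all genes), with a median of 0.14. They were the selenoprotein SELENOK at 0.45 ± 0.10 and STT3B, a catalytic subunit of the oligosaccharyltransferase, at 0.50 ± 0.10 (0.02 ± 0.10 in its other probe set). Among 27 further genes of the translocon, signal recognition and N-glycosylation 1 rose and 0 fell (3.70% called, against 15.4% of all genes). It was SRP14, a subunit of the signal recognition particle. SRP14 had 11.42, 11.24 and 11.25 in large-follicle arrays, against 10.54, 10.67 and 10.67 in small-follicle arrays, a difference of 0.68 ± 0.10 with no overlap. NFYB, FKBP10, RCN1, SELENOK and STT3B were named after their values were seen. The calls of FKBP10 and SELENOK were each lost on leaving out any of 5 arrays (FKBP10 except large-follicle replicate 3, SELENOK except small-follicle replicate 1). That of RCN1 was lost on leaving out any array except small-follicle replicate 2, and that of NFYB on leaving out large-follicle replicate 1 or 3 or small-follicle replicate 1 or 2.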

How the data were processed

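The 6 arrays were taken as 3 per group from the labels. The authors deposited 1 table of log2 signals per probe set, made with RMA, a background correction, between-array normalization and probe summary, per the submitters' processing notes. Which program ran RMA was not given in the sources used here. In all there were 24128 probe sets, and 112 controls among them were left out of the tests. Of the remaining 24016, 13292 carry 1 gene symbol (9155 genes), 86 several and 10638 none. Of the probe sets with 1 symbol, 13263 were matched to a gene of the RefSeq annotation of ARS-UCD2.0.

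The limma package (3.58.1, under R 4.3.3) fitted differences without a block as large_follicle minus small_follicle, with Benjamini-Hochberg adjustment over the 24016 probe sets and a threshold of 0.05. No filter on low values was used. Each gene was read from its probe set with the highest mean over the 6 arrays. The probe sets of all 33 measured members reached the lower quartile of probe set means (3.83), and those of 31 reached the median (5.67). Members called at the threshold, members with a difference of at least 0.5, and HSPA5, ATF4 and EIF2AK3 were given array by array, a rule that also named XBP1, ATF6 and ERN1, which had no probe set. Of the further pathway genes, up to 12 of those called were named, by size. The fit was tested on simulated arrays. Same-numbered arrays did not deviate together (correlations of -0.00194, -0.0539 and -0.343), so the numbers were not treated as pairs. Members, lists, tests and alternatives were chosen with earlier results of these data known. Plots used matplotlib 3.10.9 (python 3.11.15).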

Additional observations from a re-analysis of the deposited data

How the results depend on the processing

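DDIT3 and PDIA4 kept their direction in 19 of 19 alternatives and their call in 18, and NUCB2 and DERL1 kept their direction in 19, with calls in 14 and 9. With the end index (3' minus 5' signal of control transcripts) as a covariate, 99 probe sets were higher and 116 lower, 0 members were higher and 0 lower in the limma fit (5 at an unadjusted p under 0.05), 1 and 0 of the further pathway genes, and the chaperone median was -0.013. Members that changed sign there were EIF2AK3 (-0.051), CREB3L2 (0.044), ATF4 (-0.053), SESN2 (-0.23), HYOU1 (0.022), SDF2L1 (0.31), MANF (0.025), CRELD2 (0.044), CALR (-0.14), P4HB (-0.013), HERPUD1 (-0.15) and OS9 (0.043). With the leukocyte marker mean as a covariate, 680 probe sets were higher and 800 lower, 1 member was higher and 1 lower, 3 further genes were lower, the median of the PERK and ATF4 branch was 0.24, and CREB3L2 (0.034) and SEC61A1 (0.022) changed sign. Leaving out 1 array left 787 to 1142 probe sets higher and 828 to 1337 lower, 1 to 2 members in each direction, 7 to 8 further genes higher and 4 to 10 lower, and medians of 0.18 to 0.30 for the PERK and ATF4 branch and -0.27 to -0.067 for the chaperones. Signs turned in that range for CHAC1 (-0.06 to 0.097), CALR (-0.13 to 0.15), CANX (-0.02 to 0.08), DNAJB11 (-0.04 to 0.17), HERPUD1 (-0.033 to 0.14), OS9 (-0.06 to 0.035) and SEC61A1 (-0.215 to 0.005). With the replicate block, 1034 probe sets were lower and 1 member (DDIT3) was higher, against 1720 and 2 without it. The mean of all probe sets per gene, which tests fewer features, gave 728 genes higher and 745 lower and medians of 0.25 and -0.10. Quantile scaling turned CHAC1 (-0.00083), CANX (-0.0058) and OS9 (0.018), median centring turned CHAC1 (-0.0033) and left 1 member higher, and array weights turned CALR (-0.055), HERPUD1 (-0.036) and OS9 (0.024). Further genes called lower numbered 14 above the median signal (PERK and ATF4 median 0.245), 16 with array weights, 14 with a trended robust prior (4 members lower) and 18 at a threshold of 0.1, against 9. EIF2S1 was called higher in 5 alternatives and HSPA5 lower in 4. Except where a smaller number of features or arrays shows it, the cause was not tested. With 3 arrays per group and no detection calls, small differences and weak signals are the least certain. The planned search for motifs in promoters was not run.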
